A study of Mus musculus with 6 samples.

Results

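Imprinted genes are transcribed mainly from a single parental copy, a choice that for many of them is set by DNA methylation laid down in the egg or sperm. A number of them form a group, often called the imprinted gene network, that is highly expressed together in growing fetal and newborn organs and is switched down after birth as growth slows. In the liver, H19 and Dlk1 are known as genes of the fetal organ that are nearly silent in the adult. The data described here are the 10 genes H19, Meg3, Rian, Mirg, Dlk1, Peg3, Mest, Plagl1, Grb10 and Cdkn1c, chosen by symbol from a table of 26608 genes. All 10 had a row, and 8 of them passed the filter on low counts and were tested. Dlk1 and Mirg did not pass it and are described by their counts.

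Liver RNA came from 6 mice aged 6 weeks, 3 LiK and 3 LiKM. What the genotype names stand for is background from the published work, which the labels do not give. By that account LiKM hepatocytes differ from LiK hepatocytes in lacking Mdm2, the ubiquitin ligase that keeps the tumour suppressor p53 low. The change is made by Cre recombinase expressed from the albumin promoter, which is active in hepatocytes and in the fetal cells they come from. LiK livers are themselves engineered, so the comparison holds no normal liver.

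The libraries held between 19909993 and 24874343 counts. Levels are given as CPM, the count scaled to library size after TMM correction, on the usual CPM scale. Mdm2, whose count sums every exon and so cannot show a deletion within the gene, lay at 28.7, 29.0 and 28.6 CPM in the LiK mice, against 122, 125 and 60.5 CPM in the LiKM mice. Mice of a genotype were not copies of one library, since the chi-square per gene between them ran from 37.5 to 128. The second principal component of log2 CPM, with 18.2% of the variance, placed LiKM 3 at −37.8, far from the other LiKM mice at 28.4 and 20.2. Of 13537 genes tested by edgeR's quasi-likelihood method, 802 (5.92%) passed an adjusted p (Benjamini-Hochberg) of 0.05, of which 692 (5.11%) had the higher level in LiKM and 110 (0.813%) the lower. The libraries of LiKM lay wholly above those of LiK in 17.8% of genes tested and wholly below in 11.8%, together 29.6%.

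The long noncoding RNAs Meg3, Rian and Mirg lie in this order on chromosome 12, in the domain between Dlk1 and Dio3, and are made from the maternal copy, while Dlk1 is made from the paternal copy. They are widely thought to be parts of a shared long transcription unit that starts at the Meg3 promoter. The Meg3 promoter is printed first because 2 of the genes called here lie in that unit, the Dlk1 promoter because Dlk1 is its paternal neighbour, and the Peg3 promoter as that of a member that was not called. Each is a 300-base window of RefSeq on GRCm38.p6, from 250 bases before the start site to 50 bases after it, with capitals for TGACGTCA, the cAMP response element, and for TATAAA, the TATA box, on either strand.
Meg3 promoter, chr12:109540746-109541045, plus strand: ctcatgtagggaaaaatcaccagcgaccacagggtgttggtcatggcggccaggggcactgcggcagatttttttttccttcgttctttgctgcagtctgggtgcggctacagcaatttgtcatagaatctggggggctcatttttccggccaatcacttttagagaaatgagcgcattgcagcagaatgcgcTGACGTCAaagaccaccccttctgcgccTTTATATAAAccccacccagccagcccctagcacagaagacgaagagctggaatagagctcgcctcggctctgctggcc
Dlk1 promoter, chr12:109452573-109452872, plus strand: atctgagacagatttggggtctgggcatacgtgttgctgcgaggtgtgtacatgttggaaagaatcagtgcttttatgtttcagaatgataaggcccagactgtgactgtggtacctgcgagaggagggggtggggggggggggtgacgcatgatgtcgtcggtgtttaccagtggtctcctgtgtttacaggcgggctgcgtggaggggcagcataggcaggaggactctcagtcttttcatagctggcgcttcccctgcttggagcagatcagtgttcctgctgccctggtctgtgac
Peg3 promoter, chr7:6730370-6730669, minus strand: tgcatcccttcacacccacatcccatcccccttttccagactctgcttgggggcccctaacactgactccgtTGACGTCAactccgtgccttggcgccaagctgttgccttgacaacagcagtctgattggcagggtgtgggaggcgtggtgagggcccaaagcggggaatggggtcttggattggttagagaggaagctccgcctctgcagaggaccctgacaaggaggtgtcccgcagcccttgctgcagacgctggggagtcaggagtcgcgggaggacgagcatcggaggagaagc

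RefSeq windows were found for 8 of the 10 genes, 12 windows in all, and none was matched for H19 or Cdkn1c. TGACGTCA was present in 1.79% of 32851 windows of this length, and among the members in the first Meg3 window and in the Peg3 window. TATAAA was present in 13.6% of windows and, among the members, only in the first Meg3 window, where 2 overlapping matches on opposite strands begin 29 and 25 bases before the start site. The motif GGGGCCCC, which the Plagl1 protein (also called ZAC1) binds, was present in 1.08% of windows and among the members only in the Peg3 window. The GC box GGGCGG, found in 35.7% of windows, was present in windows of Mest, Plagl1 and Grb10. These matches are descriptions of the letters and were not tied to the expression values.

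Several of these RNAs also carry microRNAs. RefSeq places 1 hairpin within H19, 1 within Meg3, 3 within Rian, 10 within Mirg and 1 within Mest. GENCODE M21 places further microRNA genes on exons of Meg3 and Mirg, which are left out of these counts. Of the 31 mature microRNAs in the RefSeq hairpins, miR-453 and miR-496a-5p, both in Mirg, were the only ones to share a seed. The libraries selected messenger RNA and do not measure mature microRNAs. The following are examples from each noncoding host with that shared pair, with the seed (bases 2 to 8) in capitals.
mmu-miR-675-5p, H19, chr7:142577112-142577133, minus strand: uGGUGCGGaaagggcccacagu
mmu-miR-675-3p, H19, chr7:142577078-142577099, minus strand: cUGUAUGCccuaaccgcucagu
mmu-miR-770-3p, Meg3, chr12:109563744-109563765, plus strand: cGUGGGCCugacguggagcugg
mmu-miR-370-3p, Rian, chr12:109618305-109618326, plus strand: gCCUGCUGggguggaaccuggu
mmu-miR-453, Mirg, chr12:109735669-109735692, plus strand: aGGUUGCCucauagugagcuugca
mmu-miR-496a-5p, Mirg, chr12:109739132-109739152, plus strand: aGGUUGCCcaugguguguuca
mmu-miR-410-3p, Mirg, chr12:109743764-109743784, plus strand: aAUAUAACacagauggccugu

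Meg3 and Rian rose in LiKM liver and were the 2 members called. Of the 8 tested members 2 (Meg3 and Rian) were called higher and 0 lower in edgeR, where 5.11% and 0.813% of all genes tested were called (5.92% in either direction). At an unadjusted edgeR p under 0.05, 3 members were higher (Grb10 in addition) and 0 lower, where 15.4% of all genes were higher and 7.05% lower by that measure. At an adjusted p under 0.05, DESeq2 called 2 members higher and 0 lower (8.98% and 2.79% of all genes). With limma-voom the members called were also 2 higher and 0 lower (7.85% and 1.92% of all genes). In 5 of all 10 members, and 3 of the 8 tested, every LiKM library lay above every LiK library (17.8% of all genes tested), and 0 lay wholly below. Of the 8 tested, 6 had a positive log2 fold change, as had 49.5% of all genes tested. The median log2 fold change of the tested members was 0.54, against −0.0034 over all genes tested. Each tested member had at least 21 counts in every library, so none passed the filter through LiKM alone.

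**Figure D1:**
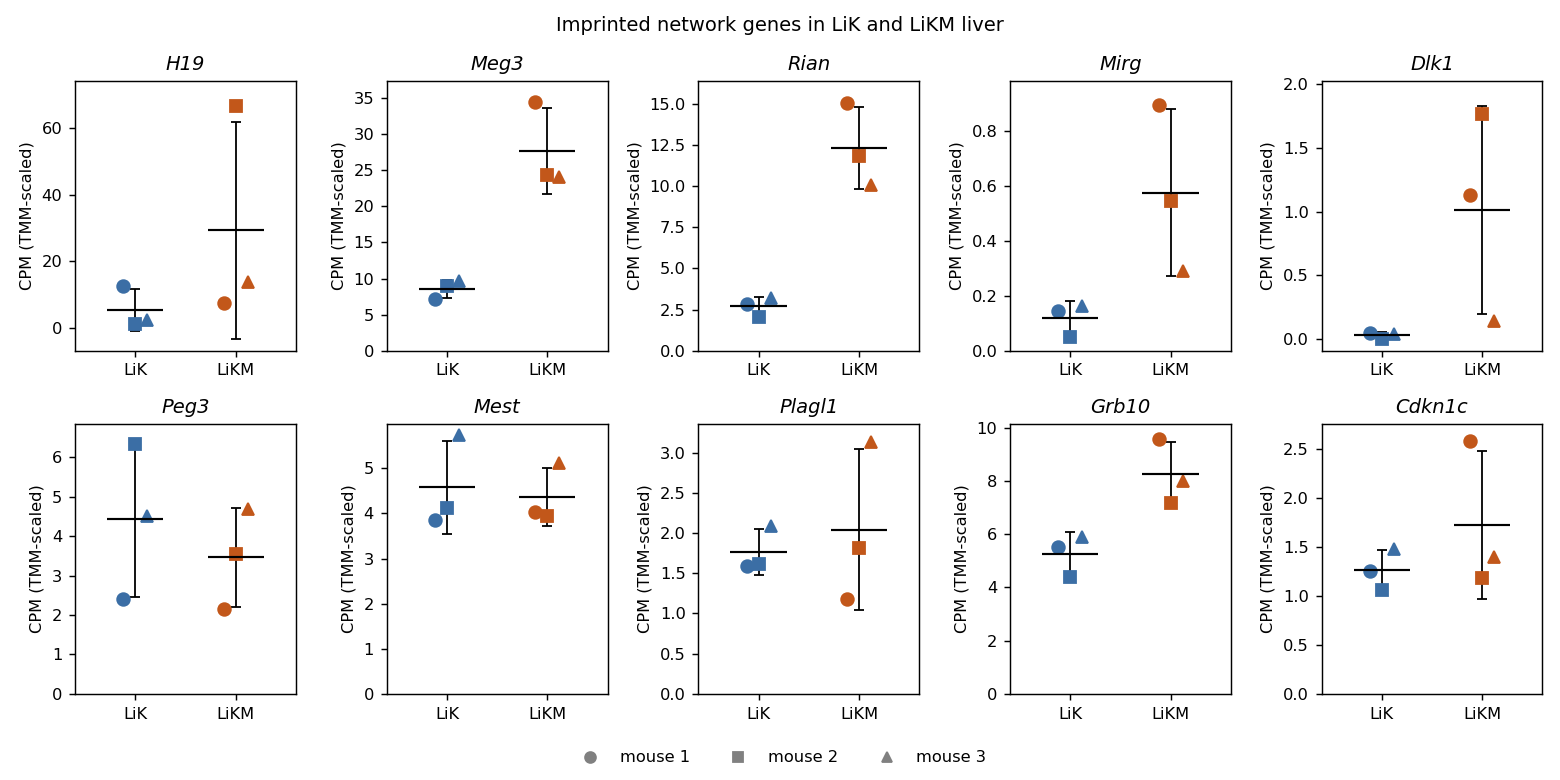
Level of each of the 10 genes in each mouse, in CPM after TMM scaling on a linear axis of its own, with LiK in blue, LiKM in orange, the mean as a line and the SD as a bar (n = 3 each). The LiKM mice lie above all LiK mice for Meg3, Rian, Mirg, Dlk1 and Grb10, while H19 spreads from 7.33 to 66.8 CPM within LiKM.

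Meg3, a noncoding RNA known as an activator of p53 in cultured cells, was at 7.17, 9.01 and 9.60 CPM in LiK and at 34.5, 24.3 and 24.1 CPM in LiKM. The genotypes did not overlap, and the LiKM mouse with the least Meg3 was still far above the LiK mouse with the most. The mean rose from 8.60 ± 1.27 to 27.6 ± 5.93 CPM (SD, n = 3 each), which is 3.21-fold (log2 1.68, SE 0.19; adjusted p = 0.0113, edgeR).

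Rian, the host of a large array of box C/D small nucleolar RNAs, was at 2.84, 2.06 and 3.20 CPM in LiK and at 15.04, 11.8 and 10.1 CPM in LiKM. Again every LiKM mouse lay above every LiK mouse, and LiKM 1 had the highest level of both RNAs. The mean rose from 2.70 ± 0.581 to 12.3 ± 2.51 CPM (n = 3 each), which is 4.54-fold (log2 2.18, SE 0.23; adjusted p = 0.0107, edgeR). Without LiK 1 or LiK 2 neither call was kept, with edgeR adjusted p of 0.0532 and 0.0562 for Meg3 and 0.0522 and 0.0554 for Rian. Their log2 fold changes stayed between 1.47 and 1.77 and between 1.99 and 2.32 over the 6 omissions.

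Mirg, the microRNA host at the far end of the unit, had 3, 1 and 4 counts in the LiK mice, against 19, 12 and 6 in the LiKM mice. The genotypes did not overlap, but LiKM 3 was only 2 counts above the highest LiK mouse. The summed counts of 8 and 37 gave a ratio of 4.69 after scaling, with an exact 95% interval of 2.15 to 11.7 that covers counting error only. In the edgeR fit without the low-count filter its log2 fold change was 2.18 (SE 0.66), with a Benjamini-Hochberg adjusted p of 0.11, and it was not called.

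Within the unit, the RNAs were compared as ratios within each library, after adding a prior count scaled to library size. The log2 ratio of Rian to Meg3 counts was −1.31, −2.08 and −1.56 in LiK and −1.19, −1.03 and −1.25 in LiKM. All 3 LiKM values lay above those of LiK, a difference of 0.49 where the SD of the LiK mice was 0.39. Its two-sided exact permutation p was 0.1, the smallest that 3 mice against 3 allow, and 0.5 after Benjamini-Hochberg adjustment over the 5 ratios compared. The log2 ratio of Mirg to Meg3 differed by −0.07 (exact permutation p = 0.8, adjusted p = 0.8) and overlapped between the genotypes.

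Dlk1, a Notch-like surface protein of fetal hepatoblasts and of regenerating liver that is best known as an inhibitor of fat cell differentiation, was almost undetected in LiK. Its counts there were 1, 0 and 1, against 24, 39 and 3 in the LiKM mice. LiKM 1 and LiKM 2 were thus clearly above LiK, while LiKM 3 was 2 counts above the highest LiK mouse. The summed counts of 2 and 66 gave a ratio of 33.5 after scaling, with an exact 95% interval of 8.91 to 282 for counting error only. The fit without the low-count filter gave a log2 fold change of 4.80 (SE 1.07) and an edgeR Benjamini-Hochberg adjusted p of 0.0381. That call was kept without LiKM 3 (edgeR adjusted p = 0.00268) and was lost in the other 5 omissions, with adjusted p between 0.0664 and 0.178, an alternative added after the data were seen. The log2 ratio of Meg3 to Dlk1 counts was 6.16 ± 0.464 in LiK and 5.07 ± 1.49 in LiKM (n = 3 each, exact permutation p = 0.4, adjusted p = 0.5). With so few Dlk1 counts in LiK this ratio rests on the prior count of 2: the difference of −1.09 became −2.22 with a prior count of 0.5. It was −1.91 without LiKM 3 and −0.42 without LiKM 2.

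**Figure D2:**
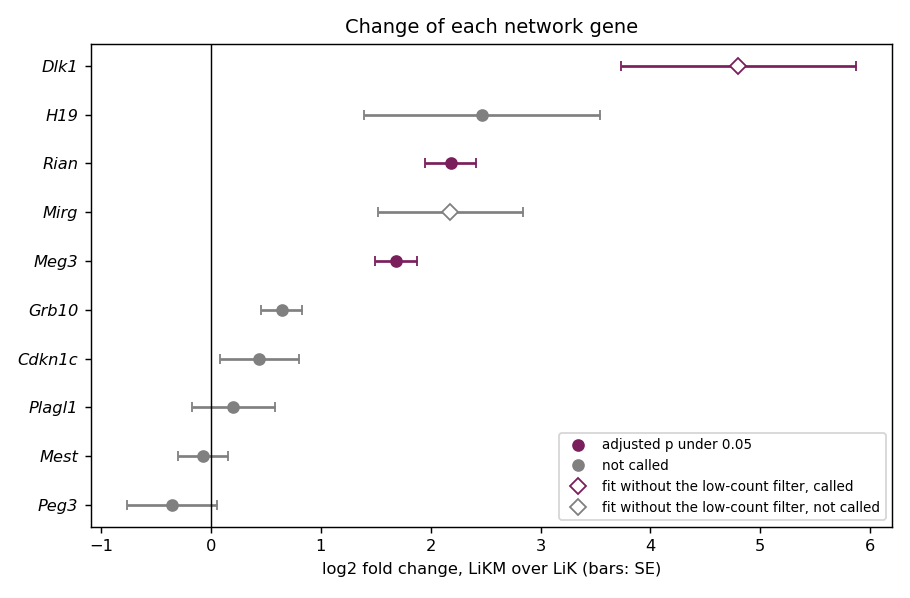
Log2 fold change of LiKM over LiK for each gene with its SE, from edgeR. Circles are genes of the filtered fit, and diamonds are Dlk1 and Mirg, whose values come from the fit without the low-count filter. Coloured marks have an adjusted p under 0.05. Dlk1 (4.80), Rian (2.18) and Meg3 (1.68) are coloured, and H19 has the widest error bar (SE 1.07) among the circles.

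H19, the maternally expressed noncoding RNA that shares its control region with Igf2 on distal chromosome 7, varied more between mice of a genotype than any other tested member. It was at 12.5, 1.06 and 2.30 CPM in LiK and at 7.33, 66.8 and 13.6 CPM in LiKM. LiK 1 lay above LiKM 1, so the genotypes overlapped, and LiKM 2 alone had 1473 counts. The mean was 5.29 ± 6.29 CPM in LiK, against 29.3 ± 32.7 in LiKM (n = 3 each), and edgeR gave no call (log2 2.47, SE 1.07, Benjamini-Hochberg adjusted p = 0.232). The log2 fold change was 0.95 without LiKM 2 and 4.10 without LiK 1, and no omission gave a call.

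Igf2, the fetal growth factor gene on the other side of that control region, stayed scarce in both genotypes. Its counts were 13, 5 and 16 in LiK, against 20, 16 and 11 in LiKM. Its log2 fold change was 0.50 (SE 0.44, edgeR Benjamini-Hochberg adjusted p = 0.547), and LiKM 2, which had the most H19, had 16. The log2 ratio of H19 to Igf2 was 4.13, 1.74 and 1.67 in LiK and 2.85, 6.35 and 4.46 in LiKM (exact permutation p = 0.2, adjusted p = 0.5). The log2 ratio of H19 to Cdkn1c, also on distal chromosome 7, was 1.28 ± 1.72 in LiK and 3.46 ± 2.13 in LiKM (n = 3 each, exact permutation p = 0.3, adjusted p = 0.5). Without LiKM 2 the difference in the ratio to Igf2 went from 2.04 to 1.13, and that in the ratio to Cdkn1c from 2.18 to 1.06.

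LiKM 2 was also the mouse with the most Dlk1. Afp, the fetal albumin-like protein whose repression after birth is under the same factor Zhx2 as that of H19, was highest in LiKM 2 as well, at 30.3 CPM against 13.8 in LiKM 1 and 14.0 in LiKM 3. Gpc3, a fetal surface proteoglycan also repressed by Zhx2, was at 9.85 CPM there against 2.58 and 4.58. In LiK 1, the LiK mouse with the most H19, Afp was at 3.85 CPM, between LiK 2 (2.42) and LiK 3 (4.31). Afp rose in LiKM by 2.45 (SE 0.38) on the log2 scale (edgeR Benjamini-Hochberg adjusted p = 0.0213), while Gpc3 was not called (2.28, SE 0.56, adjusted p = 0.0606). The Afp call was lost without LiK 1, LiK 2 or LiKM 2 (edgeR adjusted p = 0.0881, 0.0782 and 0.0548), with log2 fold changes of 2.51, 2.24 and 1.95. Gpc3 was called without LiKM 1 (2.61, adjusted p = 0.048), with DESeq2, without the low-count filter and with library totals.

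**Figure D3:**
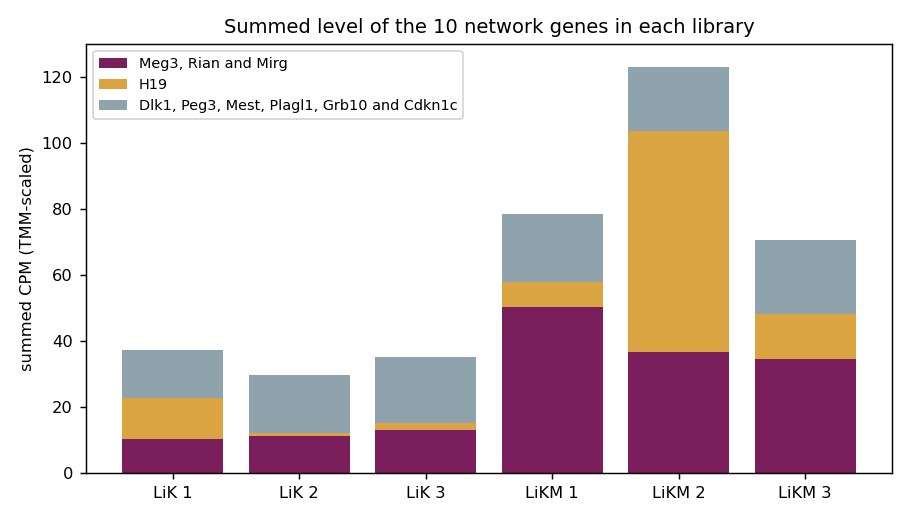
Summed level of the 10 genes in each library in CPM, stacked from Meg3 with Rian and Mirg (purple), H19 (yellow) and the other 6 genes (grey). The sum is 29.7 to 37.4 CPM in LiK and 70.5 to 123 CPM in LiKM, and H19 makes up 54.4% of it in LiKM 2.

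The summed level of the 10 genes was 37.4, 29.7 and 35.0 CPM in LiK and 78.4, 123 and 70.5 CPM in LiKM. H19 supplied between 3.56% and 33.5% of the sum in LiK and between 9.35% and 54.4% in LiKM. Without H19 the sums were 28.7 ± 3.95 CPM for LiK, against 61.4 ± 8.42 for LiKM (n = 3 each), and the genotypes still did not overlap. Meg3 and Rian, the 2 members called, supplied most of that difference. Their means rose from 8.60 to 27.6 CPM and from 2.70 to 12.3 CPM, so the sum without H19 largely restates them. All these sums are of counts, to which longer transcripts contribute more.

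Grb10, an adaptor that restrains insulin and IGF receptor signalling and is made from the maternal copy outside the brain, was at 5.54, 4.38 and 5.91 CPM in LiK and at 9.59, 7.17 and 8.003 CPM in LiKM. The genotypes did not overlap. Its rise in the mean (log2 0.64, SE 0.19) missed the edgeR threshold (adjusted p = 0.0983). It was called only when libraries were scaled by their totals (0.80, adjusted p = 0.0455), a scaling that moved the median of all genes to 0.16.

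Cdkn1c, which encodes the cell cycle inhibitor p57 and is made from the maternal copy, was at 1.25, 1.06 and 1.48 CPM in LiK and at 2.58, 1.18 and 1.40 CPM in LiKM. LiKM 1 was high and the other LiKM mice lay among those of LiK. Its log2 fold change was 0.44 (SE 0.36, edgeR Benjamini-Hochberg adjusted p = 0.519) and came to −0.0024 without LiKM 1.

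Plagl1, a zinc finger transcription factor regarded as a hub of the network because it activates other members, was at 1.59, 1.61 and 2.09 CPM in LiK and at 1.17, 1.82 and 3.13 CPM in LiKM. The LiKM mice lay both below and above the LiK mice. Its log2 fold change was 0.20 (SE 0.38, edgeR Benjamini-Hochberg adjusted p = 0.788) and turned to −0.26 without LiKM 3.

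Peg3, a zinc finger protein made from the paternal copy that marks several kinds of stem and stromal cells, was at 2.41, 6.34 and 4.51 CPM in LiK and at 2.16, 3.54 and 4.68 CPM in LiKM. The genotypes overlapped, with a log2 fold change of −0.35 (SE 0.41 and edgeR Benjamini-Hochberg adjusted p = 0.652). It was −0.0091 without LiK 2, the LiK mouse with the most Peg3, and −0.65 without LiK 1. Mest, a paternally expressed gene of the hydrolase fold family that enlarges fat cells, was at 3.85, 4.13 and 5.75 CPM in LiK and at 4.04, 3.95 and 5.11 CPM in LiKM. Its log2 fold change was −0.07 (SE 0.23, edgeR Benjamini-Hochberg adjusted p = 0.879), and its sign turned with the scaling by library totals (0.080) and without LiK 3 (0.13). Mest overlaps exons of Copg2 on the opposite strand in GENCODE M21. The strand setting of the counting is not given in the sources used here, so reads of the pair may be mixed. On the same strand, exons of Mirg overlap 9 microRNA genes that have rows of their own. Exons of H19, Meg3 and Rian also overlap same-strand genes with rows. Reads shared with those genes may not have been counted for these members.

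**Figure D4:**
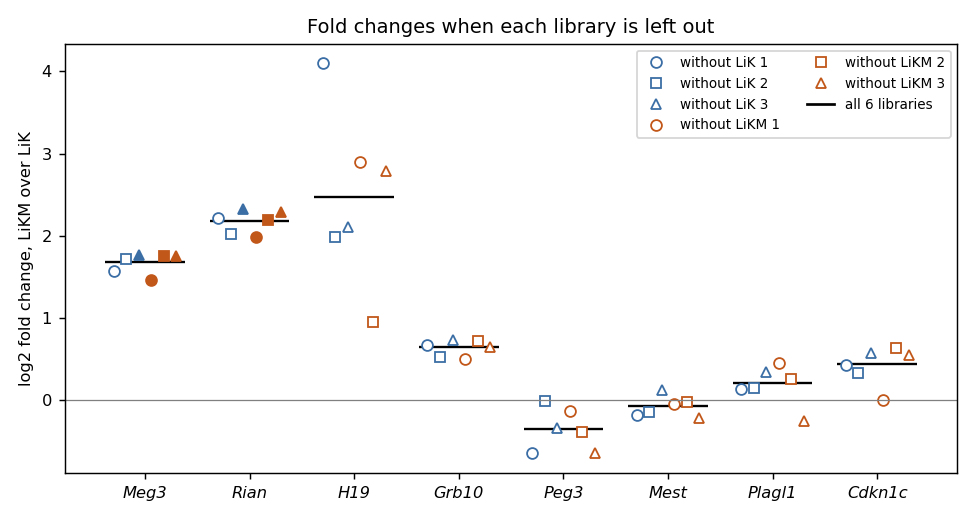
Log2 fold change of the 8 tested genes when each library is left out in turn, by edgeR. The black line is the value with all 6 libraries, and a filled mark has an adjusted p under 0.05. Meg3 and Rian keep their size but are open without LiK 1 or LiK 2, and H19 ranges from 0.95 to 4.10.

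Per kilobase of exon in GENCODE M21, which may not be the annotation of the counting, H19 had the highest mean of the members in both genotypes. In LiK that place rested on LiK 1 (5.09 CPM per kilobase), since H19 was at 0.430 in LiK 2 and 0.934 in LiK 3, below Mest at 1.05 and 1.46. By the LiK means it was followed by Mest at 1.16 ± 0.259 CPM per kilobase, Cdkn1c at 0.619 ± 0.103, Grb10 at 0.580 ± 0.0879, Meg3 at 0.475 ± 0.07, Peg3 at 0.332 ± 0.148, Plagl1 at 0.226 ± 0.0364, Rian at 0.148 ± 0.0319, Mirg at 0.0164 and Dlk1 at 0.00526 (n = 3). The ranges of the LiK mice overlapped for every neighbouring pair in this order except Mest and Cdkn1c, Plagl1 and Rian, and Rian and Mirg. In LiKM, Meg3 was next after H19 at 1.53 ± 0.328 CPM per kilobase, its range overlapping neither H19 above nor Mest below (1.11 ± 0.164). Then came Grb10 at 0.908, Cdkn1c at 0.844, Rian at 0.676, Plagl1 at 0.261, Peg3 at 0.26, Dlk1 at 0.179 and Mirg at 0.0789. Of these, only Rian and Plagl1 were neighbours whose ranges did not overlap.

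The genes with the most similar pattern over the 6 libraries were found by the root mean square difference of centred log2 CPM, among named genes of similar level. For Meg3 they were Apaf1 (0.197), a p53 target of the cell death machinery, the chromosomal passenger gene Incenp (0.207) and the collagen gene Col5a2 (0.212), out of 7373 candidates. For Rian they were the kinesin gene Kif4 (0.189), the tubulin regulator Stmn1 (0.224) and the sulfatase gene Sulf2 (0.243), out of 6524. Meg3 and Rian differed from each other by 0.34 on this scale, and H19 was at least 1.40 from every tested member.

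Most other imprinted genes were not called, as was so of all genes tested, of which 5.92% were called. Of 53 further imprinted genes on a list drawn from known clusters, 32 were tested. Of these 32, 2 were called higher (Dcn and Gatm), 2 lower (Slc38a4 and Slc22a3), and 28 were not called. Over all genes tested, 5.11% were called higher and 0.813% lower. The median log2 fold change was 0.19 over the tested genes, against −0.0034 over all genes. Of the 21 genes not tested, 7 had no count in any library. Rtl1 and Dio3, the other protein genes of the Dlk1 to Dio3 domain, were among the scarce ones. Rtl1 had a single count, in LiKM 2, and Dio3 had 1, 0 and 4 counts in the LiK mice, against 0, 2 and 1 in the LiKM mice.

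Slc22a3, an organic cation transporter gene next to Igf2r, fell from 4.04, 4.93 and 4.88 CPM in LiK to 1.79, 0.726 and 1.11 CPM in LiKM. The genotypes did not overlap. Its log2 fold change was −1.93 (SE 0.33, edgeR Benjamini-Hochberg adjusted p = 0.0251). Slc38a4, a liver amino acid transporter gene, fell from 1124 ± 200 to 638 ± 100.3 CPM (n = 3 each; log2 −0.82, SE 0.18, edgeR adjusted p = 0.0469). Gatm, the first enzyme of creatine synthesis, rose from 5.97 ± 1.08 to 10.5 ± 0.186 CPM (0.81, SE 0.17, edgeR adjusted p = 0.038). Dcn, a matrix proteoglycan gene expressed by stellate cells, rose from 106 ± 33.0 to 216 ± 24.7 CPM (1.02, SE 0.23, edgeR adjusted p = 0.047). Dcn, Gatm and Slc38a4 are also counted in the network by some definitions. Without LiK 1, LiK 2 or LiKM 2 no gene of the list was called. Dcn and Gatm were called only without LiK 3, Slc22a3 only without LiKM 1 or LiKM 3, and Slc38a4 in no omission.

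The other imprinted genes named here gave no call. Igf2r, the maternally expressed receptor that clears IGF2, had a log2 fold change of 0.37 (SE 0.13, edgeR Benjamini-Hochberg adjusted p = 0.161), and Kcnq1ot1, the noncoding RNA that silences the Cdkn1c side of distal chromosome 7, had −0.16 (adjusted p = 0.694). Phlda2, a growth restrainer beside Cdkn1c, had 1.09 (SE 0.47, adjusted p = 0.227), and Peg10, a retrotransposon-derived gene, had 0.00 (adjusted p = 0.997).

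**Figure D5:**
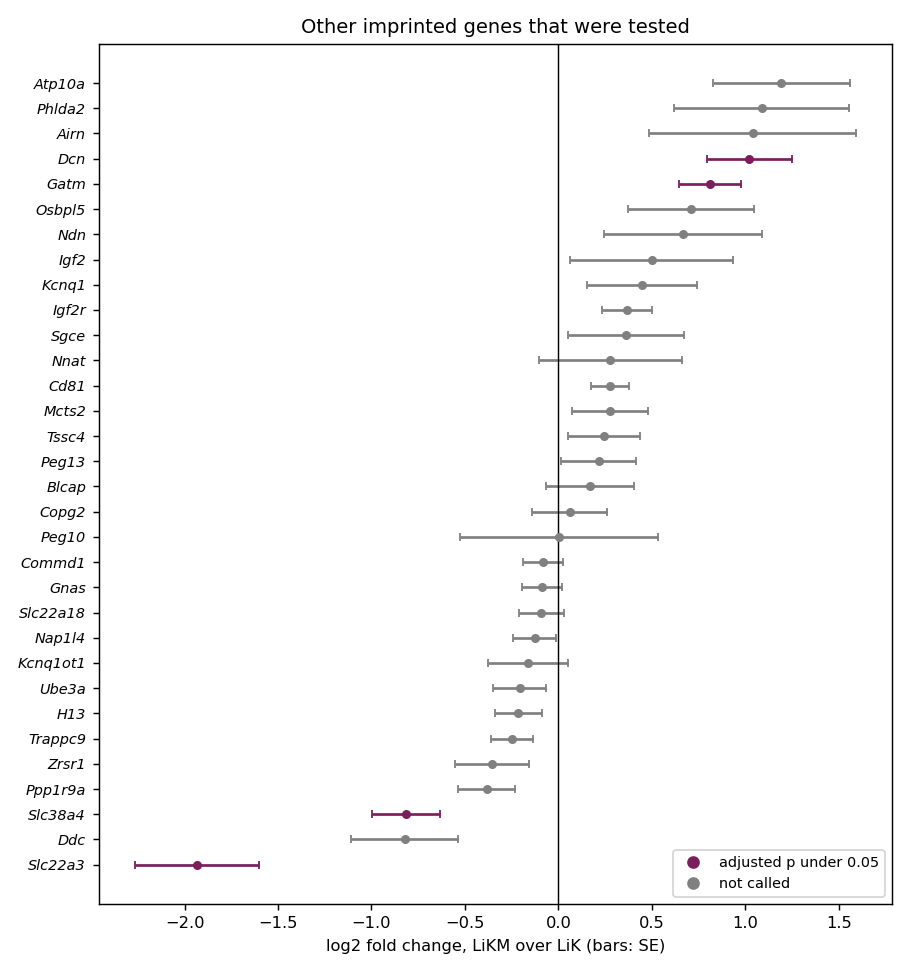
Log2 fold change of LiKM over LiK with its SE for the 32 further imprinted genes tested, ordered by size, from edgeR. Dcn and Gatm, right of zero, and Slc38a4 and Slc22a3, left of zero, are coloured for an adjusted p under 0.05, and the other 28 are grey.

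Some factors that maintain DNA methylation at imprints were higher in LiKM. They are on a mixed list, named imprint maintenance here. It also holds de novo methyltransferases, insulator protein genes and Tet enzymes, which act to remove methylation, so its counts and median cover unlike activities. Of the 14 tested genes on it, 3 were called higher, 1 lower and 10 not at all. Over all genes tested, 5.11% were called higher and 0.813% lower. The median log2 fold change of the 14 was 0.01, against −0.0034 over all genes. Dnmt1, the maintenance methyltransferase, rose from 14.3 ± 1.06 to 25.3 ± 4.84 CPM (0.83 in log2, SE 0.16, edgeR Benjamini-Hochberg adjusted p = 0.0338). Uhrf1, which brings Dnmt1 to newly copied DNA, rose by 3.47 (SE 0.69, adjusted p = 0.0354) and the helicase gene Hells by 2.41 (SE 0.49, adjusted p = 0.0379). Zfp445, a zinc finger protein that protects imprints, fell from 152 ± 31.2 to 87.2 ± 3.41 CPM (−0.80, SE 0.16, adjusted p = 0.0344). The zinc finger cofactor Trim28 (−0.12, adjusted p = 0.586) and the insulator protein gene Ctcf (−0.11, adjusted p = 0.642) were not called. When a library was left out, Dnmt1, Uhrf1 and Hells were called only without LiKM 3, and Zfp445 in none of the 6 omissions. Uhrf1 was at 17.0, 36.4 and 5.21 CPM in the LiKM mice, highest in LiKM 2 like H19 and Dlk1. Dnmt1, Uhrf1 and Hells are known to be made in dividing cells. The 8 dividing cell markers, with Mki67, Top2a and Cdk1 the most abundant by the fit, all rose in LiKM. Their summed level was 7.85 to 16.5 CPM in LiK. In LiKM 1, LiKM 2 and LiKM 3 it was 63.4, 72.4 and 87.1 CPM, so it was highest in LiKM 3. Among the LiKM mice, Dnmt1 (21.1 CPM), Uhrf1 (5.21 CPM) and Hells (2.60 CPM) were lowest in LiKM 3. The part of dividing cells in these results was not tested.

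Zhx2, known to repress H19, Afp and Gpc3 in the adult mouse liver, had a mean of 22.1 ± 2.00 CPM in LiK, against 19.3 ± 0.766 in LiKM (n = 3 each). Its log2 fold change was −0.19 (SE 0.11, edgeR Benjamini-Hochberg adjusted p = 0.372). Zbtb20, another repressor of Afp, had 0.19 (SE 0.29, adjusted p = 0.732). Among the LiKM mice, Zhx2 (18.7, 20.2 and 19.1 CPM) and Zbtb20 (5.73, 9.03 and 5.01 CPM) were also highest in LiKM 2. The list of 6 genes joins Zhx1, Zhx2, Zhx3 and Zbtb20 with the repressed genes Afp and Gpc3, so its counts mix the 2 kinds. Of these 6, edgeR called 1 (Afp) higher and 0 lower (5.11% and 0.813% of all genes tested). At an unadjusted edgeR p under 0.05, 2 were higher (Afp and Gpc3) and 1 lower (15.4% and 7.05% of all genes). The lower one was Zhx3 (log2 fold change −0.68, SE 0.25, edgeR adjusted p = 0.162). Every LiKM library lay below every LiK library in 1 (Zhx1) and above in 2 (11.8% and 17.8% of all genes tested). DESeq2 called 2 higher and 0 lower (8.98% and 2.79% of all genes). With limma-voom 1 was higher and 0 lower (7.85% and 1.92% of all genes).

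Bulk liver RNA cannot tell fewer cells of a type from less RNA per cell. Meg3, Peg3 and Dlk1 are known to be expressed by stromal or immature cells rather than by adult hepatocytes, so marker lists are given beside them. Over all genes tested, edgeR called 5.11% higher and 0.813% lower, 49.5% had a positive log2 fold change, and the median was −0.0034. The 12 stellate cell and fibroblast markers, led by Col3a1, Reln and Col1a2 in level, summed to 157 to 274 CPM in LiK and 426 to 518 CPM in LiKM. Of these 3 (Col1a1, Col3a1 and Lum) were called higher, all 12 had a positive log2 fold change, and the median was 1.17. The 10 endothelial markers summed to 273 to 305 CPM in LiK and 316 to 414 CPM in LiKM, with 1 (Plvap) called higher and a median of 0.32. The 9 cholangiocyte and progenitor markers summed to 83.3 to 254 CPM in LiK and 111 to 238 CPM in LiKM. Spp1 dominated that sum, with 225 CPM in LiK 1. Of the 7 tested, 1 (Prom1) was called higher, 6 had a positive log2 fold change, and the median was 1.12. In 5 of the 7 every LiKM library lay above every LiK library (17.8% of all genes tested). The 8 Kupffer cell and macrophage markers with a row summed to 184 to 225 CPM in LiK and 269 to 355 CPM in LiKM. Of these 3 were called higher, all 8 had a positive log2 fold change, and the median was 0.64. Of 7 tested T and natural killer cell markers, 6 were called higher, with a median of 3.02. Each of those 6 had fewer than 10 counts in every LiK library and passed the low-count filter only through LiKM. Their number and the median are therefore partly set by the filter. The list summed to 2.67 to 6.31 CPM in LiK and 10.3 to 14.8 CPM in LiKM. The remaining tested marker, Cd4, had a log2 fold change of −0.94 (edgeR adjusted p = 0.234) and supplied 4.96 CPM of the sum in LiK 1. The 8 hepatocyte markers, led by Alb, Apoa1 and Ttr, lay at 112635 to 137703 CPM in LiK and 117833 to 135237 CPM in LiKM, so the tissue matched its label. Alb dominated that sum, with 90131 CPM in LiK 1. None of the 8 was called in edgeR, 2 had a positive log2 fold change, and the median was −0.38. In 2 of the 8 every LiKM library lay below every LiK library (11.8% of all genes tested). At an unadjusted edgeR p under 0.05, 2 were lower and 0 higher (7.05% and 15.4% of all genes tested). DESeq2 called 1 lower (2.79% of all genes). The part of other cell types in the rise of Meg3, Rian and Dlk1 was not tested.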

How the data were processed

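Liver RNA of 6 mice was sequenced, 3 per genotype. The kit was a stranded one for messenger RNA, per the labels' protocols. The values are raw counts per gene symbol, which the authors deposited as 1 table. The submitters' processing notes name featureCounts and FastQC 0.11.7. Aligner, genome build, annotation and strand setting: not given in the sources used here. Each column matched the animal code in 1 sample title, and 0 columns were left unused. No label says that same-numbered mice are paired.

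Counts were used as deposited. Genes were filtered with edgeR 4.0.16 (a count of about 10 in 3 libraries, total of at least 15), which kept 13537 genes, scaled by TMM and compared by the quasi-likelihood test in R 4.3.3 with genotype as the only term. A call is an adjusted p (Benjamini-Hochberg, over all genes tested) under 0.05. Log2 ratios of 2 genes used a prior count of 2 scaled to library size. Scripts were tested on simulated data. Alternatives were other scalings, DESeq2 1.42.0, limma 3.58.1 (voom with sample weights), robust shrinkage, other filters, a replicate block and leaving out each library. Their values for single genes other than the members were added after the data were seen. Sequences are from RefSeq tables for GRCm38.p6, and exon lengths from GENCODE M21.

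The members, lists and tests were chosen with earlier results of these data known. Named were all 10 members, called genes of the wider imprinted list (up to 8) and of the 2 regulator lists (up to 6), a few fixed genes of each, for each called member the 3 genes of most similar pattern, and the most abundant markers of each cell type list. Genes named outside this rule, chosen after their values were seen, were Mdm2, Gpc3, Zhx1, Zhx3, Rtl1, Dio3, Col1a1, Lum, Plvap, Prom1 and Copg2. An allele that both genotypes share and the values of 1 marker gene are not reported here.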

Additional observations from a re-analysis of the deposited data

How the results depend on the processing

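Meg3 and Rian were called in all 9 alternatives that kept every library, with log2 fold changes between 1.66 and 1.83 and between 2.16 and 2.35, among them the fit with the replicate block (edgeR adjusted p of 0.0255 and 0.0181). The deviations of same-numbered mice correlated at r = 0.267, −0.00028 and 0.127 for mice 1, 2 and 3. Those of differently numbered mice lay between −0.197 and 0.0459, so pairs 1 and 3 were above all of them. No label pairs the mice, and the block rests on the shared number. Leaving out a library gave 0 to 3 members called higher (0 without LiK 1 or LiK 2), 18 to 525 genes called higher and 1 to 101 lower over all genes, 0 to 2 higher and 0 to 1 lower of the further imprinted genes with a median between 0.035 and 0.19, 0 to 3 higher and 0 lower of the imprint maintenance genes with a median between −0.10 and 0.14, and 0 to 2 higher of the Zhx and Zbtb20 list with a median between −0.15 and 0.11.

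The members called higher numbered 3 with library totals (Grb10 added) and without the filter (Dlk1 added). Over all genes, those higher and lower numbered 1039 and 63 with library totals, 1214 and 377 with DESeq2, and 1063 and 260 with limma-voom, and the replicate block gave 166 lower. The scaling by library totals moved the median log2 fold change of all genes to 0.16. Of the further imprinted genes, 1 was lower with library totals, with the upper quartile and with the replicate block, and 3 with DESeq2 and with limma-voom. Their median was 0.35 with library totals, 0.10 with limma-voom, 0.27 with no filter and 0.042 with at least 1 CPM in 3 libraries. The imprint maintenance list had 0 lower with library totals and, with the replicate block, 2 higher. The Zhx and Zbtb20 list had 2 higher with library totals, DESeq2, no filter and the replicate block. The Mest log2 fold change turned to 0.080 with library totals and lay between −0.22 and 0.13 when a library was left out (0.13 without LiK 3), that of Plagl1 to −0.0061 with limma-voom and lay between −0.26 (without LiKM 3) and 0.45, and that of Cdkn1c lay between −0.0024 (without LiKM 1) and 0.63. The Mirg to Meg3 log2 ratio turned from −0.07 to 0.37 with a prior count of 0.5, and lay between −0.37 and 0.20 when a library was left out. The difference in the Meg3 to Dlk1 log2 ratio was −2.22 with a prior count of 0.5 and −1.91 to −0.42 when a library was left out, in that of H19 to Cdkn1c 1.06 to 3.18, of H19 to Igf2 1.13 to 2.89 and of Rian to Meg3 0.27 to 0.66. The Peg3 log2 fold change lay between −0.65 and −0.0091. With the replicate block Gpc3 was called (adjusted p = 0.0489), while Hells (0.059) and Slc38a4 (0.0508) were not. For these changes the cause was not tested. Depth limits Dlk1 and Mirg most, with 2 and 8 counts in all of LiK.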
